A study of Mus musculus with 7 samples.

Results

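The 9 genes described here mark the oligodendrocyte lineage, the glial lineage that makes myelin in the brain. They were Olig1, Olig2, Sox10, Pdgfra, Cspg4, Mbp, Mag, Mog and Cnp, chosen by gene symbol as a textbook list and each listed once among the 24346 genes of the deposited table. RNA was measured in 7 libraries of primary hippocampal neurospheres, floating cell clusters that grow from neural stem cells (NSCs) in culture with growth factors, and each library came from 1 mouse. The 3 Med23 CKO libraries (mice KO_117, KO_214 and KO_218) came from Nestin-CreER:Med23 flox/flox mice, in which tamoxifen deletes part of Med23, a subunit of the Mediator complex, in cells with an active Nestin promoter and in their progeny. The 4 control libraries (mice WT_116, WT_213, WT_215 and WT_220), labelled wild type, came from littermates, which per the study's methods were Med23 flox/+ or Med23 flox/flox without Cre. All mice were C57/BL6 and 2 months old at culture, and both groups received tamoxifen (200 mg/kg by mouth, once daily for 5 days), so the groups differed in Cre as well as in Med23. The Nestin promoter is not restricted to NSCs, and neurospheres hold a mixture of cells. In all lists of 7 values below, the order is WT_116, WT_213, WT_215 and WT_220 for the controls and KO_117, KO_214 and KO_218 for Med23 CKO. The unit is FPKM, fragments scaled by transcript length and by the library's mapped fragments, which can be compared between genes.

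Oligodendrocyte progenitors divide, carry the growth factor receptor PDGFRα and the proteoglycan NG2 on their surface, and are found throughout the adult hippocampus. The transcription factors Olig1, Olig2 and Sox10 act in the lineage, and Sox10 with Myrf switches on the genes of myelin as a progenitor matures. Olig2 is not restricted to this lineage, since dividing neural progenitors grown as neurospheres with growth factors also express it. Mature oligodendrocytes make the enzyme CNP and the myelin proteins MBP, MAG and MOG, and they no longer divide.

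Between libraries, the summed FPKM ran from 447010 to 547030 and the number of genes above 0 from 16841 to 18113. Pearson correlations across genes were between 0.907 and 0.990 for the 21 pairs of libraries. Sox2 and Nes, listed here among NSC and astrocyte markers, were present in every library, at 69.4 to 194 FPKM and 61.1 to 240.5 FPKM. Which cells held these RNAs was not tested. Myelin RNA was present beside them, and the 9 genes together held 0.416% to 0.793% of the summed FPKM. Med23, the deleted gene, was at 10.3, 12.9, 11.4 and 10.1 FPKM in controls and 9.97, 9.27 and 8.12 FPKM in Med23 CKO. Every Med23 CKO value lay below every control value, as it did for 1.53% of the 14151 genes tested, and the difference of -0.26 ± 0.18 (SE) in log2(FPKM + 1) had an exact permutation p of 0.0571, where 0.0286 is the smallest the design allows. The gene's FPKM includes exons outside the deleted part. The paper reports the deletion of Med23 from a western blot of hippocampal tissue and from qRT-PCR of neurospheres.

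No member of the lineage list differed between genotypes beyond the spread between mice. The mean of log2(FPKM + 1), the scale of all counts of lower and higher means given here, was lower in Med23 CKO for 8 of the 9 genes, and it was higher by 0.04 for Pdgfra. A lower mean was found for 56.2% and a higher mean for 43.8% of all genes tested. The median difference of the 9 was -0.73 on the log2(FPKM + 1) scale, against -0.03 for all genes, and every gene's values overlapped between the groups, whereas 2.32% of all genes tested did not overlap. By limma with Benjamini-Hochberg adjustment over 14151 genes, 0 of the 9 passed an adjusted p of 0.05 (adjusted p = 0.9999 for each) and 0 passed an unadjusted p of 0.05, beside 0 (0%) and 212 (1.5%) of all genes, of which 71 (0.502%) were higher and 141 (0.996%) lower. All 9 genes had passed the minimum mean of 0.5 FPKM that this test used.

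Olig1 and Olig2, basic helix-loop-helix transcription factors of the lineage, were the most abundant members on the progenitor side. The genes lie beside each other on chromosome 16 of GRCm38, Olig2 at chr16:91225457-91228677 with 2 exons and Olig1 at chr16:91269772-91271933 with 1 exon, both on the forward strand and 41.1 kb apart. Olig2 was at 152, 215.3, 461 and 701 FPKM in controls and 505, 84.0 and 149 FPKM in Med23 CKO. Olig1 was at 437, 603, 1361 and 1943 FPKM in controls and 1586, 214.5 and 334 FPKM in Med23 CKO. Both genes ordered the 7 mice in the same way, highest in WT_220, KO_117 and WT_215 and lowest in KO_214, so that high and low mice occurred in both genotypes. For Olig1 the means were 1086 ± 699 (SD, n = 4) and 712 ± 760 (SD, n = 3) FPKM, and the difference in log2(FPKM + 1) was -0.91 ± 0.78 (SE, 95% interval -2.74 to 0.91; exact permutation p = 0.371). For Olig2 they were 382 ± 251 (SD, n = 4) and 246 ± 227 (SD, n = 3) FPKM, a difference of -0.79 ± 0.72 (SE, 95% interval -2.47 to 0.90; exact permutation p = 0.429). The intervals included 0 and a fall of more than 2 on the log2 scale, so neither a change nor its absence was shown.

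Sox10, the transcription factor of the SOX family that acts with Myrf on myelin genes, is a gene of 5 exons on the reverse strand at chr15:79154908-79165240. It was at 70.3, 32.6, 31.2 and 16.3 FPKM in controls and 2.97, 67.5 and 28.5 FPKM in Med23 CKO. WT_116 and KO_214 were highest and KO_117 was lowest, whereas KO_117 was among the highest and KO_214 the lowest for Olig1 and Olig2. The means of 37.6 ± 23.0 (SD, n = 4) and 33.0 ± 32.5 (SD, n = 3) FPKM differed by -0.76 ± 0.94 on the log2 scale (SE, 95% interval -2.95 to 1.42; exact permutation p = 0.543).

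The progenitor surface genes were less abundant. Cspg4 codes for NG2 and has 10 exons at chr9:56865033-56899870 on the forward strand. It was at 6.43, 12.6, 43.2 and 51.0 FPKM in controls and 47.2, 12.9 and 8.19 FPKM in Med23 CKO. It was high in the same 3 mice as Olig1 and Olig2 (WT_215, WT_220 and KO_117). Pdgfra, which codes for the receptor of PDGF-AA, has 23 exons at chr5:75152292-75198215 on the forward strand. Its values were 0.206, 0.506, 8.94 and 3.68 FPKM in controls and 2.35, 5.42 and 0.413 FPKM in Med23 CKO, a 43.4-fold range at a low level. Pdgfra followed no other member closely, and KO_214, lowest for Olig1 and Olig2, came next after WT_215 for Pdgfra. The Cspg4 means were 28.3 ± 22.1 (SD, n = 4) and 22.8 ± 21.3 (SD, n = 3) FPKM, a log2 difference of -0.26 ± 0.83 (SE, 95% interval -2.19 to 1.68; exact permutation p = 0.857). For Pdgfra the means were 3.33 ± 4.06 (SD, n = 4) and 2.73 ± 2.53 (SD, n = 3) FPKM, a log2 difference of 0.04 ± 0.83 (SE, 95% interval -1.90 to 1.98; exact permutation p = 1).

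The RNAs of the 4 myelin genes differed widely between neurospheres of different mice. Mbp, the gene of myelin basic protein, lies at chr18:82475146-82585637 on the forward strand. It was at 2234, 1023, 838 and 237.6 FPKM in controls and 66.5, 1515 and 1195 FPKM in Med23 CKO. Ranked by FPKM within a library, Mbp held rank 6 of all genes in WT_116 and rank 1441 in KO_117. Mag, the gene of a myelin adhesion protein on the inner face of the sheath, has 13 exons at chr7:30899176-30914873 on the reverse strand, and was at 209, 85.5, 74.8 and 22.3 FPKM in controls and 5.40, 139.7 and 99.1 FPKM in Med23 CKO. Mog, the gene of a protein on the outer face of the sheath, has 8 exons at chr17:37010743-37023398 on the reverse strand. Its FPKM was 141, 48.7, 36.3 and 9.02 in controls and 2.28, 89.3 and 77.1 in Med23 CKO. Cnp, which codes for an enzyme of uncompacted myelin, has 4 exons at chr11:100574904-100591729 on the forward strand and overlaps Dnajc7 on the opposite strand (61.0 FPKM on average), with which it may share reads. It was at 609, 288, 203 and 107 FPKM in controls and 43.5, 411 and 306 FPKM in Med23 CKO.

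All 4 myelin genes placed the mice in 1 order, from WT_116 through KO_214, KO_218, WT_213, WT_215 and WT_220 down to KO_117. The highest value was therefore that of a control mouse and the lowest that of a Med23 CKO mouse, but the other Med23 CKO mice came next after WT_116. From the highest to the lowest mouse, Mbp differed 33.6-fold, Mag 38.7-fold, Mog 61.9-fold and Cnp 14.0-fold. Within a genotype Mbp differed 9.40-fold among controls and 22.8-fold among Med23 CKO mice. The group means were close beside this spread, 1083 ± 837 (SD, n = 4) and 926 ± 761 (SD, n = 3) FPKM for Mbp and 302 ± 217.7 (SD, n = 4) and 253 ± 189 (SD, n = 3) FPKM for Cnp. For Mag they were 97.8 ± 79.0 (SD, n = 4) and 81.4 ± 68.9 (SD, n = 3) FPKM, and for Mog 58.7 ± 57.3 (SD, n = 4) and 56.2 ± 47.1 (SD, n = 3) FPKM. On the log2 scale Mbp differed by -0.73 ± 1.19 (SE, 95% interval -3.50 to 2.04; exact permutation p = 0.629) and Mag by -0.75 ± 1.16 (SE, 95% interval -3.45 to 1.96; exact permutation p = 0.629). Mog differed by -0.50 ± 1.32 (SE, 95% interval -3.57 to 2.57; exact permutation p = 0.714) and Cnp by -0.49 ± 0.86 (SE, 95% interval -2.50 to 1.53; exact permutation p = 0.714). RNA of whole cultures was measured, so fewer cells of a type and less RNA per cell cannot be told apart.

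**Figure D1:**
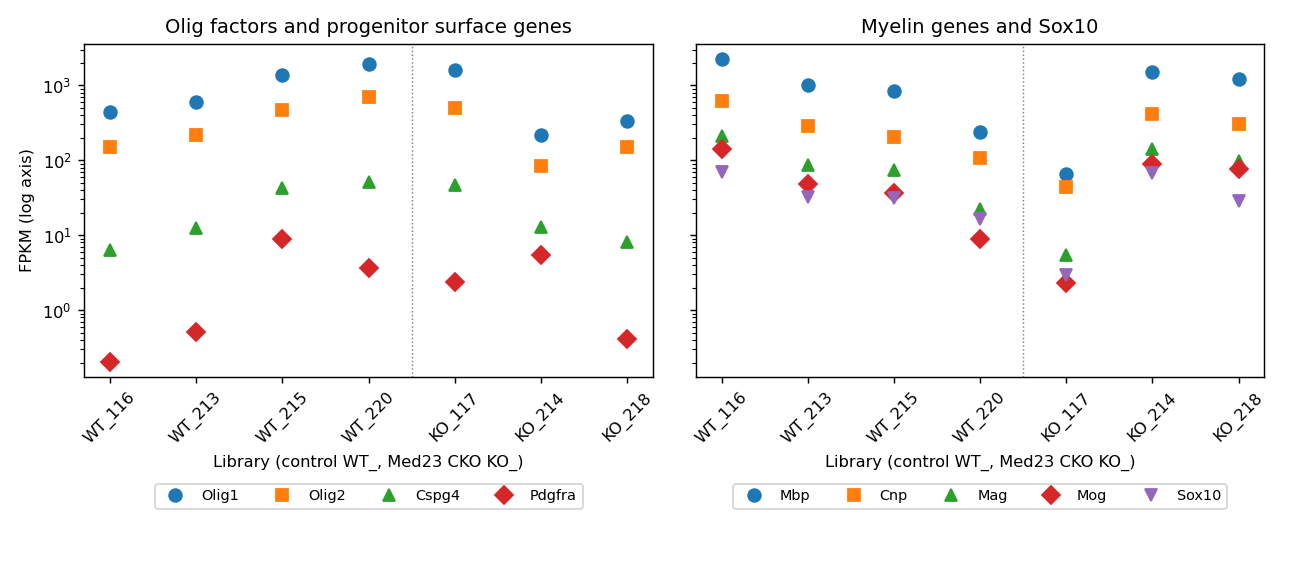
FPKM of the 9 genes (log axis) in each library, with the 4 control mice left of the dotted line and the 3 Med23 CKO mice right of it; each point is 1 gene in 1 library. The left panel shows Olig1, Olig2, Cspg4 and Pdgfra, and the right panel shows Mbp, Cnp, Mag, Mog and Sox10, which are high in WT_116 and KO_214 and lowest in KO_117.

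The direction of the difference for the myelin genes turned when 1 mouse was left out. Without KO_117, the lowest library for all 4 and for Sox10, the log2 difference turned to 0.71 for Mbp, 0.66 for Mag, 1.06 for Mog, 0.51 for Cnp and 0.40 for Sox10, that is, a higher mean in Med23 CKO. Olig1 and Olig2 moved the other way, to -1.77 and -1.51, and these 2 genes then had unadjusted limma p-values of 0.0227 and 0.0447 (adjusted p = 0.597 for both). In that setting 410 of 14225 genes tested were lower and 362 higher at an unadjusted p of 0.05. With all 7 libraries, 141 of 14151 were lower and 71 higher. Cspg4 turned to a higher mean in Med23 CKO without WT_215 (0.08), WT_220 (0.16) or KO_218 (0.24), and Mog did so without WT_116 (0.11). Pdgfra turned to a lower mean without WT_116 (-0.40), WT_213 (-0.29), KO_117 (-0.01) or KO_214 (-0.48). Only Olig1 and Olig2 were lower in Med23 CKO whichever single library was left out, with ranges of -1.77 to -0.33 and -1.51 to -0.22.

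**Figure D2:**
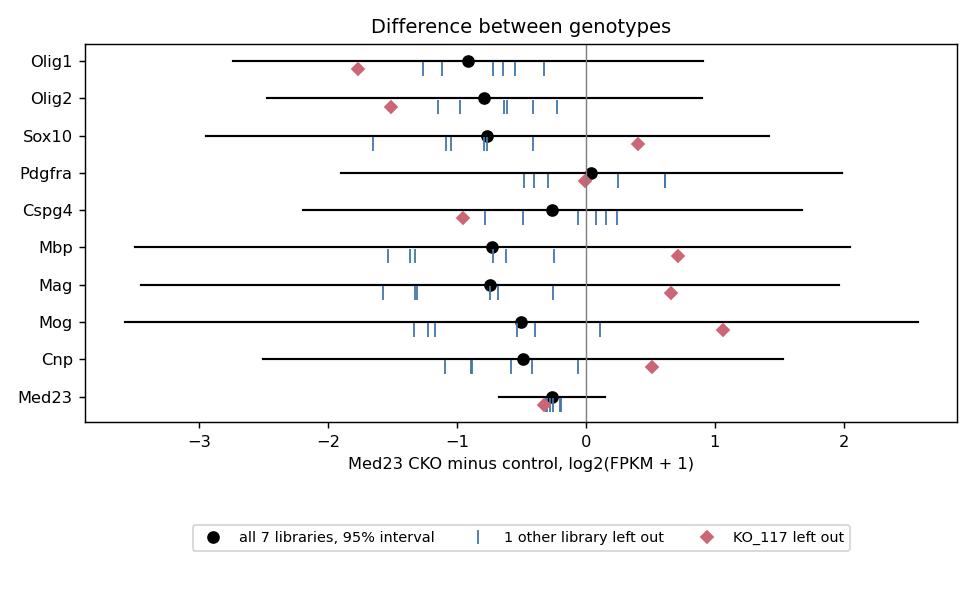
Difference between genotypes (Med23 CKO minus control, in log2(FPKM + 1)) for the 9 genes and Med23. Black points and lines show the fit on all 7 libraries with its 95% interval, blue ticks the fits with 1 other library left out, and red diamonds the fit without KO_117; all 9 intervals include 0, and the diamonds of Sox10, Mbp, Mag, Mog and Cnp lie right of 0.

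The spread between mice of 1 genotype was larger for these genes than for most. The residual SD within genotypes was 1.89 for Mbp, 1.85 for Mag, 2.10 for Mog and 1.37 for Cnp on the log2 scale, where the median gene had 0.38. Among the 14151 genes tested, Mog was at percentile 99.7 of this spread, Mbp at 99.5, Mag at 99.4, Sox10 at 98.0 and Cnp at 97.2. Olig2 had the smallest spread of the 9, at 1.14 and percentile 94.6. Among the 7526 genes with a mean of at least 10 FPKM, which include all members but Pdgfra, the percentiles of those 8 ran from 93.5 to 99.5, whereas Med23 was at 8.36.

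Within this spread all members but Pdgfra fell into 2 sets that ran against each other, as the plot of Mbp against Olig2 shows. Running against Olig2 was not particular to this lineage. The median r with Olig2 was -0.82 for 30 other myelin genes and -0.04 for all genes tested. It was -0.90 for microglia and macrophage, -0.88 for endothelial, and -0.83 for pericyte and smooth muscle markers. With Mbp, these marker lists had a median r of 0.67, 0.68 and 0.72. Olig1 and Olig2 correlated over the 7 libraries (Pearson's r = 0.99, exact permutation p = 0.000198, adjusted p = 0.00102; Spearman's rho = 1, exact permutation p = 0.000397), and the ratio of Olig1 to Olig2 stayed between 2.24 and 3.14. The myelin genes correlated with each other as closely (r of 0.990 to 0.999 for Mbp with Mag, Mog and Cnp), and the ratio of Mag to Mbp stayed between 0.0812 and 0.0937. Sox10 went with the myelin genes and not with Olig1 and Olig2, with r = 0.97 to Mbp (exact permutation p = 0.00159, adjusted p = 0.00571; rho = 0.893, exact permutation p = 0.0123), and r = 0.85 without KO_117 and WT_116, the 2 libraries farthest from its median.

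Olig2 and Mbp were inversely related, with r = -0.77 (exact permutation p = 0.0345, adjusted p = 0.0509) and rho = -0.857 (exact permutation p = 0.0238, adjusted p = 0.0373). Without WT_220 and KO_214, the libraries farthest from the median of Olig2, r was -0.77, and in the 5 libraries with mouse numbers from 200 upward it was -0.87. WT_116 and KO_117, the remaining libraries, are too few for a value of their own, and the labels do not say what the numbers stand for. Cspg4 ran with Olig2 (r = 0.88, exact permutation p = 0.0232, adjusted p = 0.0446; rho = 0.75, exact permutation p = 0.0663) and against Mog (r = -0.85, exact permutation p = 0.00556, adjusted p = 0.0167; rho = -0.857, exact permutation p = 0.0238). Pdgfra correlated with Olig2 at r = 0.36 (exact permutation p = 0.398) and with Cspg4 at r = 0.71 (exact permutation p = 0.0849). Of the 36 pairs of members, 22 had an adjusted p under 0.05 for r. All values of a pair come from the same libraries, and the 9 genes were chosen with earlier results of these data known.

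The ratio of Mbp to Olig2 put this in 1 number per mouse. It was 14.7, 4.75, 1.82 and 0.339 in controls and 0.132, 18.0 and 8.003 in Med23 CKO, a 137-fold range from KO_117 to KO_214, both of 1 genotype. Its mean log2 value was 1.36 in controls and 1.42 in Med23 CKO (exact permutation p = 1). The ratio of Sox10 to Olig2 covered a 137-fold range too, and its mean log2 value was -3.29 in controls and -3.37 in Med23 CKO (exact permutation p = 1). The ratio of Cspg4 to Pdgfra, both listed as progenitor surface genes, was 31.2, 24.9, 4.83 and 13.8 in controls and 20.0, 2.38 and 19.9 in Med23 CKO. It was lowest in WT_215 and KO_214, the mice with the most Pdgfra, which is the divisor. Of the fibroblast markers given below, Col1a1, Col1a2, Col3a1 and Dcn were highest in KO_214 and next in WT_215. The other genes of that list had a different order. Which cells held the Pdgfra RNA was not tested.

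**Figure D3:**
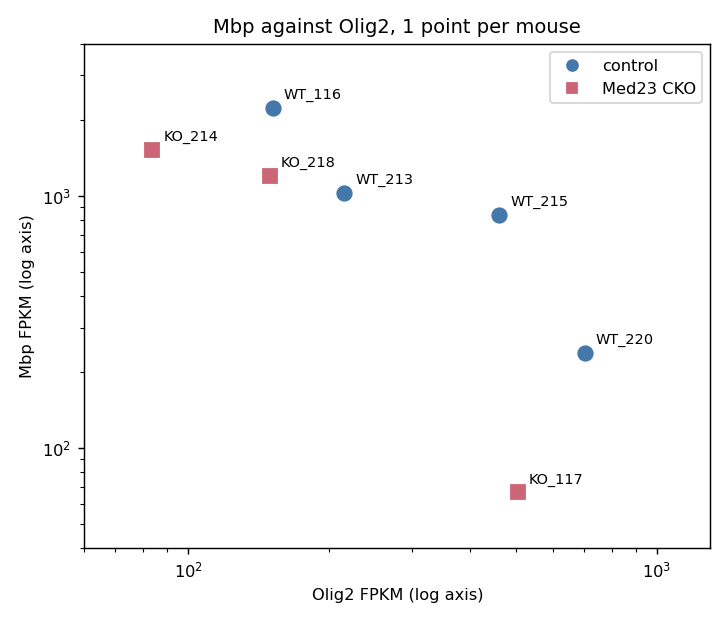
Mbp against Olig2 FPKM (log axes), 1 point per mouse, circles for control and squares for Med23 CKO. Mice with more Olig2 had less Mbp, and each genotype spans most of the range, from KO_214 (84.0 and 1515 FPKM) to WT_220 (701 and 237.6 FPKM) and KO_117 (505 and 66.5 FPKM).

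Promoter windows of an Olig gene and of myelin genes are shown as a description. RefSeq windows on GRCm38.p6, from 250 bases before to 50 bases after a gene's start, were read for 6 of the 9 genes (Olig2, Pdgfra, Cspg4, Mag, Mog and Cnp). They were searched on both strands for ACAAAG and ACAATG, forms of the SOX motif, and for CAGCTG and CATCTG, forms of the E-box that basic helix-loop-helix factors bind; no 2 of these motifs overlap in the windows printed. Capitals mark a match, printed 5′ to 3′ on the strand of the gene, so that a match on the other strand reads as CATTGT or CTTTGT.
Olig2, chr16:91225300-91225599, forward strand: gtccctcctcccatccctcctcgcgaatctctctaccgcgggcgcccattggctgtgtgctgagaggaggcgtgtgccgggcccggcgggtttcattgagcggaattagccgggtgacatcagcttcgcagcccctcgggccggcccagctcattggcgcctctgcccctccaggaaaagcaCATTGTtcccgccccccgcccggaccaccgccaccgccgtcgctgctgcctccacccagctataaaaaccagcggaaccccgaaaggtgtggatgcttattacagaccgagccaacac
Mag, chr7:30914814-30915113, reverse strand: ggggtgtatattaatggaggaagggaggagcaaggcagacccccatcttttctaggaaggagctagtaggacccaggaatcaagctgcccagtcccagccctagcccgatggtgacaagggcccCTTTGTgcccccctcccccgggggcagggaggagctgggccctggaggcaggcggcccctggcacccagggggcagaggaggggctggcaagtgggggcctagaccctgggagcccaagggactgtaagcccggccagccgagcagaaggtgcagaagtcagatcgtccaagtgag
Mog, chr17:37023349-37023648, reverse strand: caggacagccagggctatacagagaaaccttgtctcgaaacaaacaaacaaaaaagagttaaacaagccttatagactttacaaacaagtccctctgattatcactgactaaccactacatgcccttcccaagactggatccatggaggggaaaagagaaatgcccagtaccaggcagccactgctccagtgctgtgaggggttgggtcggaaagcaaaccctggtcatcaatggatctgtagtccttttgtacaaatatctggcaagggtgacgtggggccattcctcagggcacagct
Cnp, chr11:100574689-100574988, forward strand: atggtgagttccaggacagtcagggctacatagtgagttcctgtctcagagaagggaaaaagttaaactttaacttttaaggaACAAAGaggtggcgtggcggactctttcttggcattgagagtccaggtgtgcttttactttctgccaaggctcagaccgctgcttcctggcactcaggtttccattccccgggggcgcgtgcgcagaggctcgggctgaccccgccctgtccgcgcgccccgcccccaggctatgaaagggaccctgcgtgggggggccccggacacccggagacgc
A SOX motif was found once each in the printed windows of Olig2, Mag and Cnp, and not in that of Mog. Whether these motifs bear on the RNA levels was not tested. Mag has 3 windows, of which 1 overlaps the printed one and holds the same match and 1 inside the gene (chr7:30914272-30914571) holds none of the 4 motifs. The window of Cspg4 held none of the 4 motifs, and that of Pdgfra held 1 E-box, CATCTG. Of 32851 windows of the same length, 28.6% held a SOX motif and 30.6% an E-box, so a match is common. The printed windows of Olig2 and Mag each had 65.0% G and C and that of Mog 48.3%, beside a median of 52.7% over all windows.

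Other genes of the lineage, from lists of 81 genes drawn up by stage, were examined beside the members. Of these, 78 were tested, 0 passed an adjusted p of 0.05, and 1, the transcription factor Prrx1, was higher in Med23 CKO at an unadjusted p of 0.05, where 0.502% of all genes tested were. The mean was lower in Med23 CKO for 61 and higher for 17, where 56.2% of all genes tested were lower. The median log2 difference was -0.28. Without KO_117 this median was 0.40, without WT_116 it was -0.02, and with any other single library left out it was between -0.51 and -0.21.

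Myelin genes outside the members followed Mbp closely. All 30 were tested, and all 30 had a lower mean of log2(FPKM + 1) in Med23 CKO, as did 56.2% of all genes tested. None of the 30 passed. The median log2 difference of -0.30 became 0.66 without KO_117, 0.11 without WT_116 and 0.13 with array weights, and it became -0.94 without WT_220, -0.98 without KO_214 and -0.79 without KO_218. KO_117 was the lowest mouse for 28 of the 30 (93.3%) and WT_116 the highest for 27 of them (90%), where 20.6% and 15.4% of all genes tested were. Trf, the gene of transferrin, was at 2311, 1106, 741 and 229.7 FPKM in controls and 115, 1947 and 1221 FPKM in Med23 CKO, and Cryab, a small heat shock protein gene, ran from 27.8 FPKM in KO_117 to 539 FPKM in WT_116. Of the 30 genes, 28 correlated with Mbp at r above 0.9 (93.3%), where 5.07% of all genes tested did. The exceptions were Gpr62 (r = 0.65) and Anln (r = -0.87), whose product anillin also serves cell division.

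Some transcription factors went with Mbp, some with Olig2, and others, such as Tcf7l2, Prrx1 and Id2, closely with neither. Myrf, the regulator that acts with Sox10 on myelin genes, was at 66.6, 33.0, 23.2 and 8.89 FPKM in controls and 3.51, 50.8 and 31.1 FPKM in Med23 CKO, the same order of mice as Mbp but for WT_213 and KO_218, whose places were exchanged. Sox8, a SOX factor of the same group as Sox10, was at 36.2, 39.1, 85.3 and 116.03 FPKM in controls and 99.9, 26.6 and 31.1 FPKM in Med23 CKO, and went with Olig2 (r = 0.98). Of the 16 factors tested, 3 correlated with Mbp at r above 0.9 (Myrf, Nkx6-2 and Zfp536) and 6 with Olig2 (Nkx2-2, Sox8, Sox6, Sox5 and Chd7 among them), 18.8% and 37.5% of them beside 5.07% and 11.5% of all genes tested. Id2, an inhibitor of helix-loop-helix factors, ran only from 72.6 to 119 FPKM between mice. Prrx1, a homeobox factor, was at 8.67 ± 2.20 (SD, n = 4) FPKM in controls and 15.8 ± 1.83 (SD, n = 3) FPKM in Med23 CKO. The difference of 0.81 ± 0.22 (SE) on the log2 scale had a limma p of 0.00686, an adjusted p of 0.9999 and an exact permutation p of 0.0571. Every Med23 CKO value lay above every control value for Prrx1 and Tcf7l2, 2 of the 16 factors, as for 0.784% of all genes tested.

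Genes of progenitors and of newly formed oligodendrocytes were examined in the same way. Of 18 progenitor genes tested, the mean was lower in Med23 CKO for 13 and higher for 5, where 56.2% of all genes tested were lower. The median of the 18 was -0.24, and none passed. This median was 0.03 without WT_215, -0.48 without WT_116 and -0.50 without KO_117. WT_215, the mouse with the most Pdgfra, was highest for 13 of the 18 (72.2%), where it was highest for 6.54% of all genes tested. Of the 18, 4 (22.2%) correlated with Olig2 and 1 (5.56%) with Mbp at r above 0.9, beside 11.5% and 5.07% of all genes tested. Ptprz1, a receptor phosphatase gene, was at 64.1, 156, 227 and 179 FPKM in controls and 199, 67.1 and 110.0 FPKM in Med23 CKO. Epn2 ran from 47.1 FPKM in KO_214 to 111 FPKM in WT_215, and Cspg5, the gene of a brain proteoglycan, from 32.5 FPKM in WT_116 to 122 FPKM in WT_215. Of 14 genes of committed and newly formed oligodendrocytes, all tested, 7 had a lower and 7 a higher mean in Med23 CKO, with a median of -0.04 that ran from -0.29 without WT_220 to 0.39 without KO_117. Of the 14, 6 (42.9%) correlated with Mbp and 1 (7.14%) with Olig2 at r above 0.9, beside 5.07% and 11.5% of all genes tested. Within that list Sirt2, a deacetylase gene, went with Mbp (r = 0.92) and Fyn, a kinase gene, with Olig2 (r = 0.98), and Mpzl1 ran from 74.3 FPKM in KO_117 to 202 FPKM in WT_116.

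**Figure D4:**
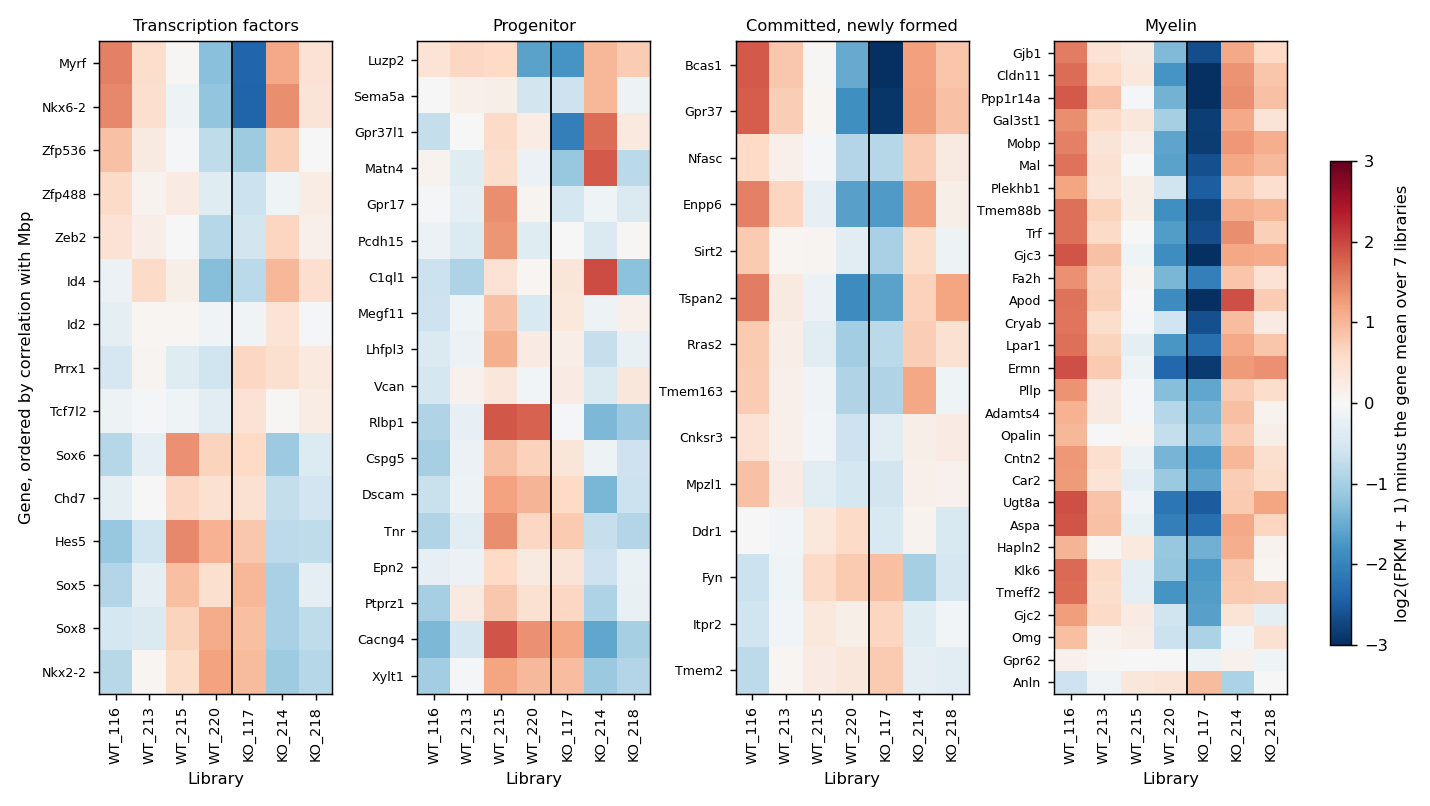
Level of the genes of the wider lineage lists in each library as the difference of log2(FPKM + 1) from the gene's mean over the 7 libraries (colour, limited to 3 in either direction), with genes ordered from top to bottom by their correlation with Mbp and a black line between control and Med23 CKO. In the myelin panel most genes are lowest in KO_117, and Sox8 and Nkx2-2 at the foot of the transcription factor panel are high in WT_220 and KO_117 instead.

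The ligands and the other receptor of the PDGF family were given beside Pdgfra. Pdgfa, whose product is the ligand of the receptor on progenitors, was at 63.2, 53.1, 25.5 and 16.0 FPKM in controls and 21.2, 72.1 and 38.1 FPKM in Med23 CKO. It was low in the mice with much Olig2 and Cspg4, and highest in KO_214. Its correlation with Olig2 was r = -0.94, which was not tested. The median r with Olig2 was -0.90 for microglia and macrophage markers and -0.88 for endothelial markers. Pdgfrb, the receptor of pericytes, was at 2.47, 8.97, 3.26 and 1.18 FPKM in controls and 0.948, 25.2 and 5.48 FPKM in Med23 CKO. Pdgfb, Pdgfc and Pdgfd had means of 2.76, 2.58 and 1.49 FPKM. None of these 5 genes passed an adjusted or an unadjusted p of 0.05.

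Markers of other cells also differed between the mice, and their part in the levels of the 9 genes was not tested. The 13 NSC and astrocyte markers summed to 2263 to 4254 FPKM in controls and 2631 to 4106 FPKM in Med23 CKO, with Vim and Fabp7 the most abundant. They did not run together, and 7 of the 13 correlated positively with Olig2. Sox2, Nes and Sox9 did so at r above 0.9 (23.1% of the list, beside 11.5% of all genes tested). Gfap (r = -0.93), Prom1 (r = -0.92) and Aqp4 (r = -0.88) ran against Olig2, and Gfap ran from 17.8 FPKM in WT_220 to 321 FPKM in KO_214. The 14 microglia and macrophage markers summed to 39.7 to 256 FPKM in controls and 42.4 to 1125 FPKM in Med23 CKO, and KO_214 was highest for 12 of the 13 tested. In KO_214, next after WT_116 for the myelin genes, Tyrobp was at 492 FPKM and Cd68 at 259 FPKM, both microglial. The 12 endothelial markers (Cldn5 and Esam among them) summed to 12.1 to 85.8 FPKM in controls and 7.93 to 147 FPKM in Med23 CKO, and KO_214 was highest for 10 of the 11 tested. Pericyte and smooth muscle markers, 11 genes led by Acta2 and Tagln, summed to 26.9 to 145 FPKM and 18.6 to 497 FPKM, and 10 fibroblast markers, led by Col6a1 and Fbln1, to 18.6 to 40.6 FPKM and 26.4 to 212 FPKM. KO_214 was highest for 9 of 10 and 8 of 9 of those tested, beside 25.4% of all genes. Fbln1 ran apart from the other fibroblast markers, with r = 0.75 to Olig2. It was highest in KO_117, where it made 33.2 of the list's 39.1 FPKM. In that library Col1a1, Col1a2, Col3a1 and Dcn were at 0.224, 0.647, 0.312 and 0.479 FPKM. Of the 8 Schwann cell markers (57.5 to 94.98 FPKM in controls and 75.7 to 173 FPKM in Med23 CKO), Pmp22 and Cdh19 gave most of the sum, while Gfra3 was listed at 0 in 6 of 7 libraries. Pmp22, 1 of the 5 of them tested and a myelin gene that many other cells also express, was at 48.1 ± 8.49 (SD, n = 4) FPKM in controls and 95.5 ± 41.1 (SD, n = 3) FPKM in Med23 CKO. Every Med23 CKO value lay above every control value, as for 0.784% of all genes tested (exact permutation p = 0.0286, the smallest the design allows). The limma p was 0.0143 (adjusted p = 0.9999), where 0.502% of all genes tested were higher at an unadjusted p of 0.05. The 12 neuroblast markers, led by Elavl3 and Sox11, summed to 92.99 to 104 FPKM in controls and 75.2 to 133 FPKM in Med23 CKO.

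Of 2 lists chosen after these values were seen, 8 proliferation genes ran with Olig2 and against Mbp. They summed to 380, 555, 983 and 966 FPKM in controls and 1256, 241 and 642 FPKM in Med23 CKO, and all 8 were highest in KO_117 and lowest in KO_214. KO_117 was the highest mouse for 23.6% and KO_214 the lowest for 18.7% of all genes tested. All 8 correlated positively with Olig2 and 0 of 8 with Mbp, where 6972 and 7169 of 14149 genes did. At r above 0.9, 3 of the 8 (37.5%) correlated with Olig2, beside 11.5% of all genes tested. Mki67 was at 86.5 FPKM in KO_117 and 4.08 FPKM in KO_214. The 8 mature neuron genes summed to 97.8, 66.6, 59.0 and 78.4 FPKM in controls and 19.8, 57.3 and 59.0 FPKM in Med23 CKO. The sum was lowest in KO_117, the mouse with the least myelin RNA, which was the lowest mouse for 4 of the 8 genes (50%, beside 20.6% of all genes tested). Grin1 and Nrgn of this list had lower means in Med23 CKO, with unadjusted limma p-values of 0.0164 and 0.0363 (adjusted p = 0.9999 for both; exact permutation p = 0.0571 for both). At an unadjusted p of 0.05, 0.996% of all genes tested were lower. Both genes were picked after their values were seen, so these p-values cannot show a difference.

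**Figure D5:**
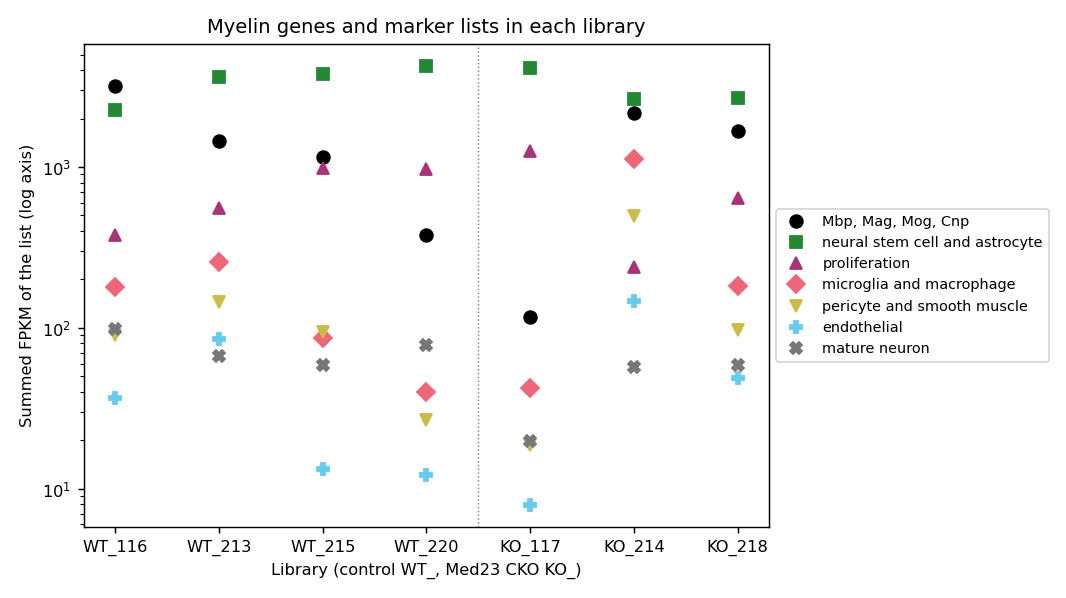
Summed FPKM (log axis) of Mbp, Mag, Mog and Cnp and of 6 marker lists in each library, with control mice left of the dotted line and Med23 CKO mice right of it. The myelin sum runs from 118 FPKM in KO_117 to 3193 FPKM in WT_116, proliferation is highest in KO_117 (1256 FPKM), and microglial and vascular markers are highest in KO_214.

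Over 13133 genes with a mean of at least 1 FPKM, those whose levels followed a member most closely were listed as a description. For Mbp they were Mag (r = 0.999), Gjb1, Tcp11l2, Kndc1 and Bcas1. Gjb1, the gene of the gap junction protein connexin 32, was at 78.8, 36.1, 31.9 and 9.99 FPKM in controls and 3.36, 59.1 and 40.6 FPKM in Med23 CKO. For Olig2 they were Nnat (r = 0.999), 2610318N02Rik, Hapln3, B4galnt4 and Hacd1, and Olig1 was not among them. Nnat, the imprinted gene of neuronatin, was at 55.7, 81.4, 198 and 286 FPKM in controls and 204, 27.2 and 52.0 FPKM in Med23 CKO, and it placed the 7 mice in the same order as Olig2.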

How the data were processed

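RNA-seq libraries of 7 single-mouse neurosphere cultures (4 control, 3 Med23 CKO) were grouped by the genotype in their labels. The paper states fewer control mice than the labels give and does not name them, so all 4 were used. Per the study's methods, the authors removed adapters, mapped what remained to mm10 using TopHat, and took FPKM per gene from Cuffdiff; the submitters' processing notes also list FastQC. The annotation used and the strand setting of the library kit are not given in the sources used here, so reads of genes that overlap on opposite strands could not be told apart. Labels and methods place the tamoxifen at different ages, the methods earlier for cultures. The table the authors deposited also holds group means and their own comparison (log2 fold change, test score, p-value and q-value), which were not used. It held 0 columns of samples without a group. The deposited FPKM values gave no whole fragments, so the depth of each library is unknown, no interval that needs it is given, and the precision is set by how many libraries there are.

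The scale was log2(FPKM + 1), which understates changes of low genes, for the 14151 of 24346 genes with a mean of at least 0.5 FPKM. Med23 CKO was compared with control over all 7 libraries by limma 3.58.1 in R 4.3.3 (lmFit, eBayes with trend, two-sided, Benjamini-Hochberg adjustment across these genes). Single genes and log2 ratios were also tested by two-sided exact permutation over the 35 splits into 4 and 3 libraries (smallest p 0.0286), and correlations of log2(FPKM + 1) between members by exact permutation over 5040 pairings, in Python 3.11.15 with scipy 1.17.1. The fit was run on simulated data with independent noise for each gene. That setting cannot show how the fit behaves where many genes vary together, as they do here. The 9 members and all gene lists were chosen with earlier results of these data known; the proliferation and mature neuron lists, and the genes named from them, were added after their values were seen. Genes named with values were the members, Med23, genes of the wider lineage lists with an unadjusted p under 0.05 and the 3 most abundant of each list, the PDGF genes, the 2 most abundant of each marker list, and the 5 genes most correlated with Olig2 and with Mbp. Sox2, Nes, Sox9, Gfap, Prom1, Aqp4, Gfra3, Tcf7l2, Anln, Gpr62, Col1a1, Col1a2, Col3a1, Dcn and the transcription factors correlated with Mbp or Olig2 were named after their values were seen. A few genes of these lists are counted but not reported here by name. Gene coordinates are from GENCODE M21 and promoter windows from RefSeq, both on GRCm38 (mm10). The alternatives were no filter on low values, a minimum mean of 1 FPKM, a pseudocount of 0.1, quantile normalization, median centring, array weights, a covariate for the first digit of the mouse number, and each library left out in turn.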

Additional observations from a re-analysis of the deposited data

How the results depend on the processing

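For the 9 members, 0 passed an adjusted p of 0.05 under any alternative. A pseudocount of 0.1, no filter, a mean of at least 1 FPKM, quantile normalization, median centring and the first digit of the mouse number turned no member's direction. Array weights, which gave KO_117 a weight of 0.301 and KO_218 3.01, turned the log2 difference to -0.73 for Pdgfra, 0.072 for Mbp, 0.013 for Mag, 0.45 for Mog and 0.057 for Cnp. With 1 library left out in turn, the log2 difference ran from -1.65 to 0.40 for Sox10, -0.48 to 0.61 for Pdgfra, -0.96 to 0.24 for Cspg4, -1.53 to 0.71 for Mbp, -1.57 to 0.66 for Mag, -1.33 to 1.06 for Mog and -1.09 to 0.51 for Cnp. At an unadjusted p of 0.05, 0 to 2 members were lower in Med23 CKO (2 without KO_117, 0 otherwise), and of the wider lists 0 to 2 genes were lower and 1 to 2 higher. With array weights 3 of the wider lists were lower. At that threshold 71 of all genes were higher in Med23 CKO and 141 were lower. The numbers higher were 140 with no filter and 193 with array weights, 887 were lower with array weights, and leaving out 1 library gave 44 to 362 higher and 71 to 410 lower, with 0 to 1 higher at an adjusted p of 0.05; the cause was not tested. The median of all genes stayed between -0.09 and 0.01 on the log2 scale under every alternative. No paired analysis was possible because the labels do not give the litter of a mouse.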
